A study of Homo sapiens with 23 samples.

Results

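The Arp2/3 complex is the protein machine that starts a new actin filament on the side of an existing filament. The genes described here are its subunits, ACTR2, ACTR3, ARPC1A, ARPC1B, ARPC2, ARPC3, ARPC4, ARPC5 and ARPC5L, 9 genes set beside 20046 gene symbols that had a value on the arrays. They were taken by name, and the family was singled out because ARPC1B had been seen to fall with EtOH in SUDHL-2 cells. For the members that contrast is therefore given as a description with no test. Counts of adjusted p for it, given at the end, are not read as a result. Of the 9 genes, 8 had at least 1 named probe and together 12 probes, each kept apart. ACTR2 had no named probe and was not analysed here. A probe was kept when its signal stood above the negative controls (detection p at or below 0.02) on every array of at least 1 group. By this rule 10 of the 12 probes were kept, and these 10 were detected on all 23 arrays. The other 2 were a further ARPC2 probe (ILMN_2255021), detected on 2 arrays, and a further ARPC4 probe (ILMN_1803183), detected on 0 arrays.

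Branched actin networks push the cell membrane forward and support migration, endocytosis and the contact between a lymphocyte and its target. In the complex, ACTR2 and ACTR3 resemble actin and form the first building block of the new branch, and ARPC2 and ARPC4 form the core that grips the older filament. ARPC3 bridges the actin-related proteins and the rest, and ARPC1 and ARPC5 exist as alternative forms, ARPC1A or ARPC1B and ARPC5 or ARPC5L, so that a single complex holds a single form of each. ARPC1B is the main ARPC1 form in human blood cells, and its inherited loss causes an immunodeficiency.

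The arrays measured RNA from the heavy polysomal fractions 9 to 11, that is, messenger RNA loaded with many ribosomes, from the established diffuse large B-cell lymphoma (DLBCL) lines SUDHL-2 and SUDHL-4. Each line was treated with 40 nM INK128, an mTOR kinase inhibitor, for 24 h, beside cells given 0.01% DMSO. Each line was also treated with 20 mM EtOH for 48 h in sealed flasks, beside cells given water, and the sources used here do not say whether flasks with water were sealed as well. The 8 groups held 3 arrays each, except SUDHL-2 cells with EtOH, with 2 arrays. The agents differ in exposure time, so that agent and time cannot be told apart between the experiments. The study calls the replicates of the array experiment independent and does not say whether cultures, treatments or later steps were repeated, so p-values measure the spread between these arrays.

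Each labelling used 0.5 µg of RNA, so values describe the share of a transcript in the polysomal pool, and a fall of the whole pool would not be seen. In such bulk samples fewer cells with a transcript and less of it per cell cannot be told apart. An array detected between 14699 and 17098 probes, and the number of arrays limits the precision. Levels below are log2 signals, scaled so that each array has a mean of 0 and the same SD of 2.03 over its 18136 kept probes. Differences and folds are taken from these scaled levels and not from raw signals. A level compares groups for the same probe and not different probes. Signals under the lowest detected signal of an array were set to that signal, so that a probe not above background in a group gives only a bound. Of the kept probes, 1265 to 2202 were detected on no array of either group in a treatment comparison, and these count among all kept probes below. The B-cell markers MS4A1, CD79A, CD79B and CD22 were detected on every array, whereas PAX5 was detected on 0 arrays. The 4 detected markers had mean scaled levels of -0.02 to 0.29 in the SUDHL-2 groups and of 2.32 to 3.01 in the SUDHL-4 groups. Markers of the ABC subtype of DLBCL (8 genes) had mean scaled levels of 1.46 to 1.62 in the SUDHL-2 groups and of -1.14 to -0.95 in the SUDHL-4 groups. Of the ABC list, PIM1, FOXP1 and PTPN1 were detected on every array, and CCND2, on 2 arrays, was left out of the mean. Markers of the GCB subtype (7 genes) had mean levels of -0.0008 to 0.18 in SUDHL-2 and of 1.04 to 1.94 in SUDHL-4 groups. Of these, BCL6, LMO2, STAP1 and ITPKB were detected on every array. Of 8 T-cell and myeloid markers, CD3D, CD3E, CD8A and CSF1R were detected on 0 arrays, CD2 on 21, LYZ on 18, CD14 on 10 and MPO on 2 of the 23 arrays.

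ARPC1B was the subunit with the widest range. Its probe (ILMN_2085760) gave signals of 1594.7, 1597.2 and 1601.7 on the SUDHL-2 water arrays and of 113.1 and 100 on the SUDHL-2 EtOH arrays. Both EtOH signals still passed detection, with detection p-values of 0 and 0.0013. On the scaled log2 axis the water arrays stood at 2.38, 1.91 and 2.40 and the EtOH arrays at -1.23 and -1.52. The groups were far apart, and the mean difference was -3.61 (SE 0.25, 3 and 2 arrays), a 12.2-fold lower scaled level.

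In SUDHL-4 cells the ARPC1B level did not show such a gap. The water arrays stood at 2.43, 2.15 and 2.31, and the EtOH arrays at 1.29, 2.33 and 2.01. EtOH replicate 1 lay far below every water array, replicate 2 lay within their range and replicate 3 just below it. The mean difference was -0.42 (SE 0.23, 95% interval -0.92 to 0.08), which did not pass the test (adjusted p = 0.459, limma over all kept probes). Without EtOH replicate 1 the difference was -0.13 (adjusted p = 0.760).

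ARPC1B did not pass the test with INK128 in either line. In SUDHL-2 cells its levels were 0.92, 1.00 and 1.15 in DMSO and 0.81, 1.55 and 1.76 with INK128. The INK128 arrays straddled the controls, and the difference was 0.35 (SE 0.25, 95% interval -0.19 to 0.89, adjusted p = 0.556), or 0.16 without INK128 replicate 3 and 0.64 without INK128 replicate 1. In SUDHL-4 cells the levels were 2.14, 1.74 and 2.19 in DMSO and 2.50, 2.74 and 1.94 with INK128. Here too the groups overlapped, with a difference of 0.37 (SE 0.25, 95% interval -0.17 to 0.91, adjusted p = 0.408). It was 0.23 without DMSO replicate 2, 0.20 without INK128 replicate 2 and 0.60 without INK128 replicate 3, and no left-out array brought either line past the test. The responses of the lines to INK128 differed by -0.02 (95% interval -0.78 to 0.74, adjusted p = 0.982).

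Across the 8 groups the mean ARPC1B level was 2.39 in SUDHL-4 INK128, 2.30 in SUDHL-4 water, 2.23 in SUDHL-2 water, 2.02 in SUDHL-4 DMSO, 1.88 in SUDHL-4 EtOH, 1.37 in SUDHL-2 INK128, 1.02 in SUDHL-2 DMSO and -1.38 in SUDHL-2 EtOH. Each of these groups overlapped the next in the order, except SUDHL-2 DMSO and SUDHL-2 EtOH, whose arrays were separated by 2.15.

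**Figure D1:**
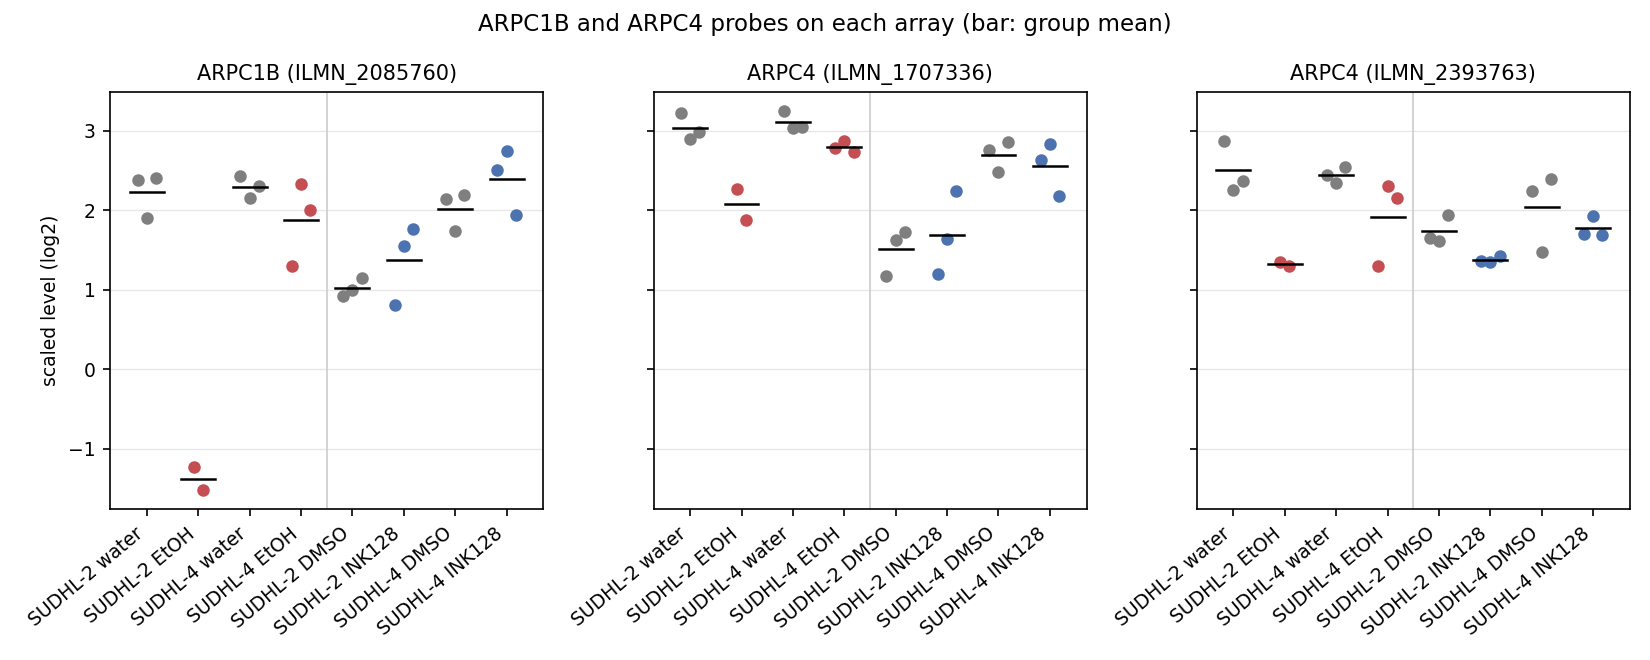
Scaled log2 level (vertical axis) of the ARPC1B probe and of both kept ARPC4 probes on each of the 23 arrays, by group (horizontal axis); points are arrays, bars are group means, grey marks controls, red EtOH and blue INK128. ARPC1B on the SUDHL-2 EtOH arrays, at -1.23 and -1.52, lies below every other array, while the ARPC4 probes on the same arrays lie at 1.29 to 2.27.

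ARPC4, the core subunit that holds the older filament together with ARPC2, was also lower on the SUDHL-2 EtOH arrays, by less. Its first probe (ILMN_1707336) had scaled levels of 3.23, 2.90 and 2.98 in water and of 2.27 and 1.88 with EtOH. Its second (ILMN_2393763) had levels of 2.87, 2.26 and 2.37 in water and of 1.34 and 1.29 with EtOH. Both probes separated the groups, with mean differences of -0.96 (SE 0.13) and -1.18 (SE 0.26).

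In SUDHL-4 cells both ARPC4 probes also lay below water on all 3 EtOH arrays, without passing the test. The first probe had levels of 3.25, 3.04 and 3.05 in water and of 2.78, 2.87 and 2.73 with EtOH, a difference of -0.32 (SE 0.12, adjusted p = 0.256). The second had 2.45, 2.35 and 2.55 in water and 1.29, 2.30 and 2.16 with EtOH, a difference of -0.53 (SE 0.23, adjusted p = 0.332). As for ARPC1B, the lowest value of the second probe was on replicate 1. Without that array the differences were -0.31 (adjusted p = 0.382) and -0.22 (adjusted p = 0.643). ARPC4 overlaps the readthrough gene ARPC4-TTLL3 and TADA3 in the RefSeq annotation, and probe sequences were not used here, so a signal from an overlapping transcript was not checked.

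ARPC1A, the other ARPC1 form and the direct genomic neighbour of ARPC1B, went the opposite way on the SUDHL-2 EtOH arrays. Its levels were 2.01, 1.89 and 2.01 in water and 2.34 and 2.62 with EtOH. The EtOH arrays were both above the water arrays, by a mean of 0.51 (SE 0.13), where the ARPC1B difference was -3.61. In SUDHL-4 cells ARPC1A stood at 1.43, 1.61 and 1.43 in water and at 1.55, 1.62 and 1.26 with EtOH, with overlapping groups and a difference of -0.01 (SE 0.11, adjusted p = 0.964).

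ARPC2, the partner of ARPC4 in the core, had a bright and a dim kept probe that did not move together. The bright probe (ILMN_1792489) had levels of 4.84, 4.71 and 4.89 in SUDHL-2 water and of 5.18 and 5.02 with EtOH, a difference of 0.29 (SE 0.11). The dim probe (ILMN_1810200), with signals of only 66.3 to 147.8, had levels of -1.49, -1.57 and -1.73 in water and of -1.98 and -2.03 with EtOH, a difference of -0.41 (SE 0.10). The probes of this gene thus gave opposite directions in the same samples, each with separated groups.

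The remaining subunits differed by less on the SUDHL-2 EtOH arrays. ARPC3 was at 3.10, 3.59 and 3.63 in water and at 3.21 and 3.55 with EtOH, within the water range (-0.05, SE 0.16). ACTR3, a founder of the new branch, was at 1.91, 2.69 and 1.81 in water and at 1.47 and 2.25 with EtOH, with overlapping groups (-0.28, SE 0.31). ARPC5 was at 4.28, 4.65 and 4.27 in water and at 4.59 and 4.60 with EtOH, again overlapping (0.19, SE 0.13). These 3 subunits showed no separation of the groups. ARPC5L was at 2.98, 2.91 and 3.23 in water and at 3.25 and 3.31 with EtOH, where the EtOH arrays lay just above the highest water array (0.24, SE 0.15).

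Counted over the 10 kept probes, 7 had EtOH and water arrays that did not overlap in SUDHL-2 cells, 3 higher and 4 lower, where 38% of all kept probes did not overlap (22.5% higher and 15.6% lower). The family was chosen on this contrast, and nothing is read from these counts. In SUDHL-4 cells 0 of 10 probes passed the test with EtOH, beside 0.248% of all kept probes, which was 45 probes, or 2 when arrays were blocked by title number and 0 when blocked by the number in the sample names. Beside 2564 of the 18136 kept probes, 2 of the 10 member probes had an unadjusted p under 0.05, both of ARPC4. These 2 were also the only member probes whose groups did not overlap, both lower, beside 36.5% of all kept probes (24.6% lower). Apart from ARPC1B and ARPC4, the subunits with EtOH in SUDHL-4 cells had differences of -0.11 to 0.20, between the dim ARPC2 probe and ACTR3.

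**Figure D2:**
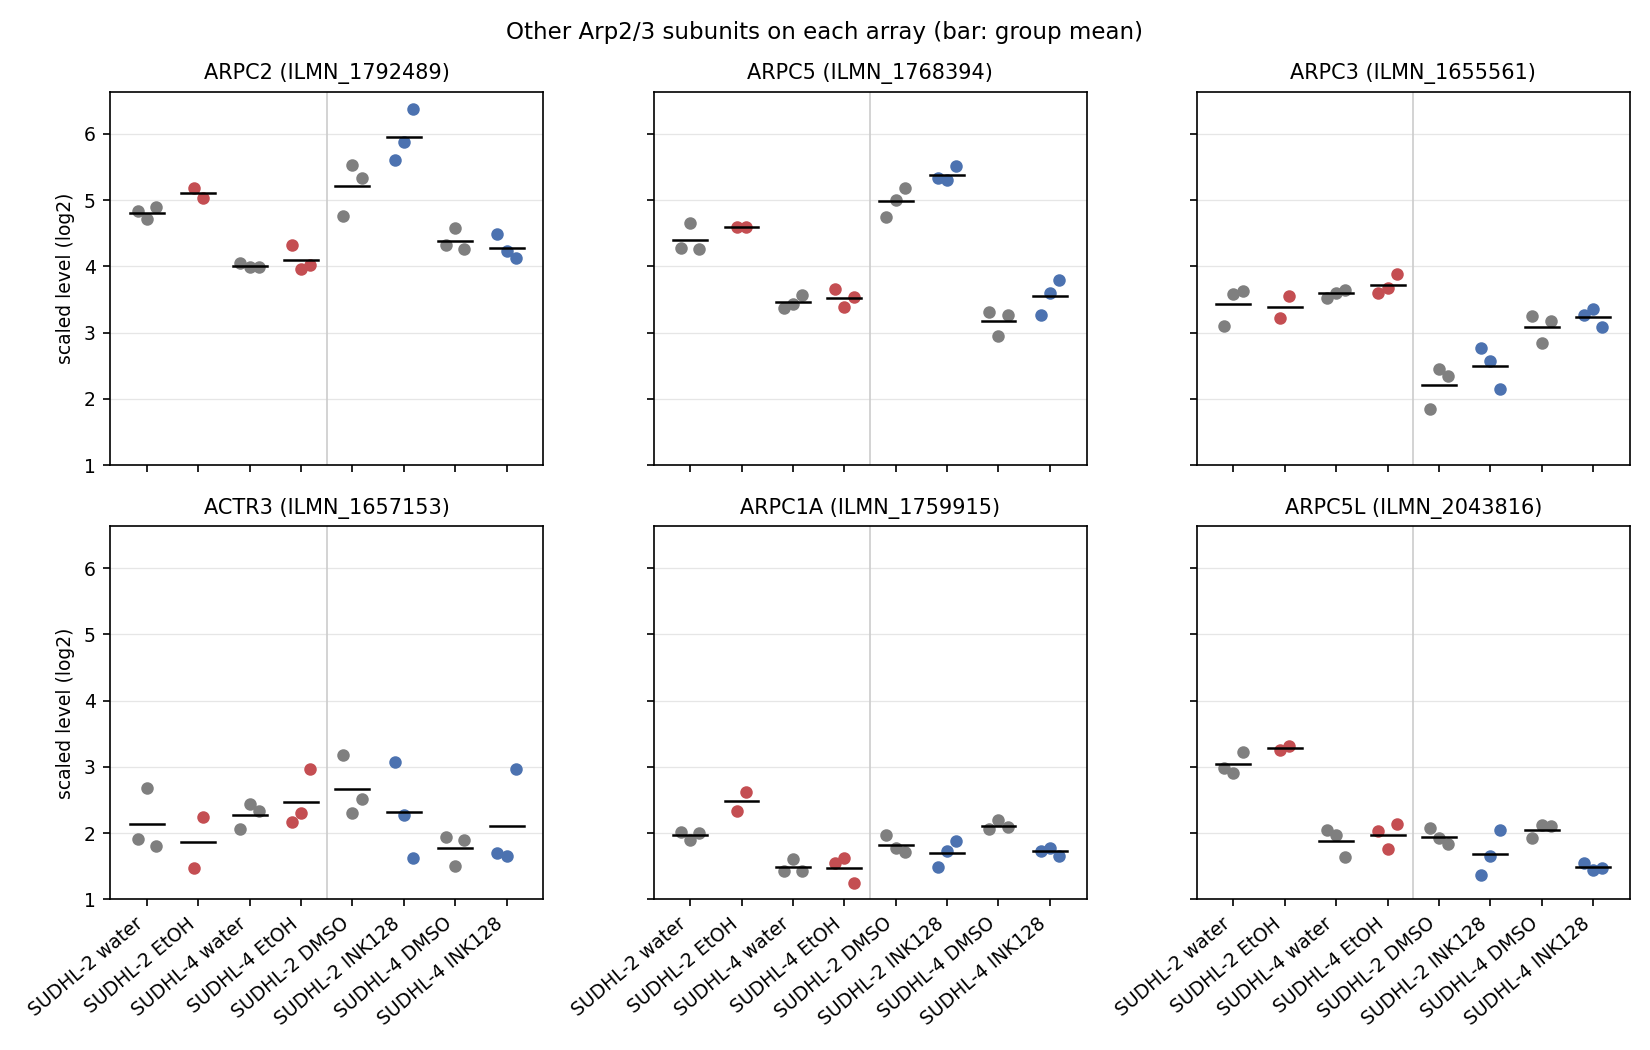
Scaled log2 level (vertical axis) of ARPC2 (bright probe), ARPC5, ARPC3, ACTR3, ARPC1A and ARPC5L on each of the 23 arrays, by group (horizontal axis); points are arrays, bars are group means, grey marks controls, red EtOH and blue INK128. On the SUDHL-2 EtOH arrays none of these 6 probes is as far from the water arrays as ARPC1B, and the largest mean difference is 0.51, for ARPC1A.

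ARPC1B was next set against the other subunits within each array. The measure was its scaled level minus the mean of the 7 other measured subunits, each the mean of its kept probes. In SUDHL-2 cells it was -0.93 to -0.33 on the water arrays and -3.84 and -4.30 on the EtOH arrays. The mean difference was -3.53, given with no test, so that the other subunits together did not fall as ARPC1B did. Without the ARPC4 probes among the other subunits, an alternative chosen after seeing the data, it was -3.70.

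Outside that contrast the same measure was set to an exact test, with 3 arrays against 3 and a smallest possible p of 0.1, so that no outcome could pass 0.05. With EtOH in SUDHL-4 cells it changed by -0.42 (exact permutation test, two-sided, p = 0.3). With INK128 it changed by 0.31 in SUDHL-2 cells (exact p = 0.4) and by 0.45 in SUDHL-4 cells (exact p = 0.3). Adjusted over these 3 comparisons each p was 0.4. Leaving out SUDHL-4 EtOH replicate 1 gave -0.16 in place of -0.42. With INK128 the SUDHL-2 value was 0.59, 0.20 and 0.12 without INK128 replicate 1, 2 and 3, and the SUDHL-4 value 0.27 and 0.71 without INK128 replicate 2 and 3.

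**Figure D3:**
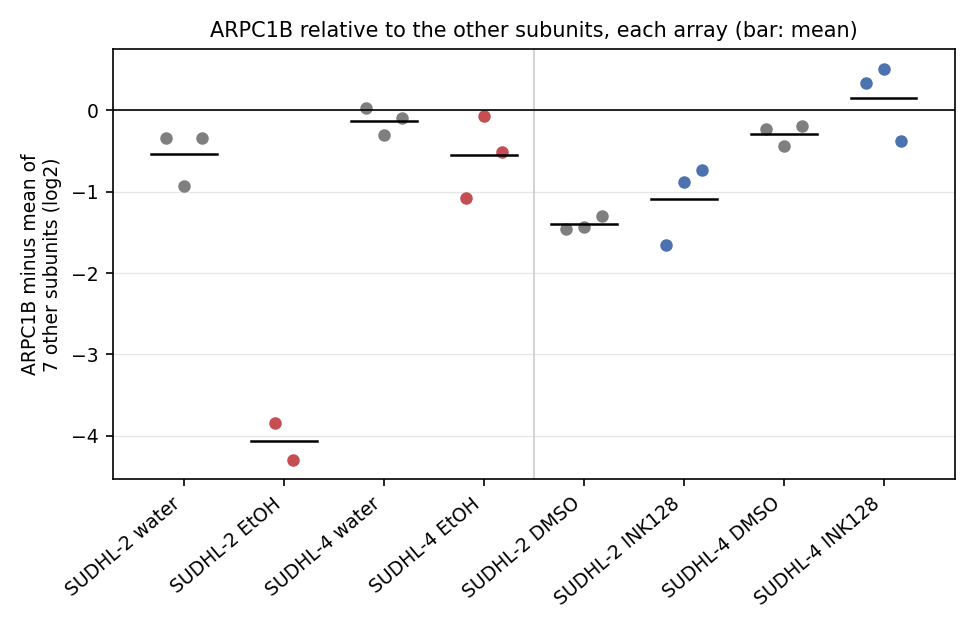
ARPC1B minus the mean of the 7 other measured Arp2/3 subunits on each array (vertical axis, log2), by group (horizontal axis); points are arrays, bars are group means and the line marks 0. The SUDHL-2 EtOH arrays stand at -3.84 and -4.30, and the other 21 arrays at -1.66 to 0.51.

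With INK128 the subunits of SUDHL-2 cells showed no change that passed the test. Of 10 kept probes 0 were called, beside 3.51% of all kept probes (637 of 18136). Beside 3109 of the 18136 kept probes, 2 member probes had an unadjusted p under 0.05. The larger of these was the bright ARPC2 probe, with levels of 4.76, 5.53 and 5.34 in DMSO and of 5.61, 5.88 and 6.38 with INK128. All INK128 arrays lay above all DMSO arrays, by a mean of 0.75 (SE 0.22, adjusted p = 0.0895). This probe passed in 4 of the other settings tried and without SUDHL-2 INK128 replicate 1 (0.92, adjusted p = 0.0326). The dim ARPC2 probe differed by 0.12 (SE 0.12, adjusted p = 0.757).

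ARPC5, for which ARPC5L is the alternative form, was the second. Its levels were 4.75, 5.00 and 5.19 in DMSO and 5.33, 5.30 and 5.51 with INK128. The groups did not overlap, and the difference was 0.40 (SE 0.16, adjusted p = 0.225), or 0.22 with median centring. The second ARPC4 probe also had groups that did not overlap, with levels of 1.66, 1.61 and 1.95 in DMSO and of 1.37, 1.35 and 1.43 with INK128 (-0.36, SE 0.20, adjusted p = 0.411). These 3 of 10 probes without overlap stand beside 16.5% of all kept probes. The other subunits had differences of -0.34, for ACTR3, to 0.35, for ARPC1B, and their groups overlapped.

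In SUDHL-4 cells a single subunit, ARPC5L, passed the test with INK128. This alternative form of ARPC5 had levels of 1.92, 2.13 and 2.10 in DMSO and of 1.56, 1.44 and 1.47 with INK128. Every INK128 array lay below every DMSO array, by a mean of 0.56 (difference -0.56, SE 0.15, adjusted p = 0.0285). The call was 1 of 10 member probes, beside 15% of all kept probes (2720 of 18136, and 7.05% lower). It was lost with quantile normalization (adjusted p = 0.0684) and when any of 5 arrays was left out, SUDHL-4 DMSO replicate 2 or 3 (adjusted p = 0.0990 and 0.0965) or SUDHL-4 INK128 replicate 1, 2 or 3 (0.0598, 0.0902 and 0.0747), with differences of -0.59 to -0.52 in these settings.

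ARPC1A and the dim ARPC2 probe were also below DMSO on every SUDHL-4 INK128 array. ARPC1A had levels of 2.06, 2.19 and 2.09 in DMSO and of 1.74, 1.78 and 1.66 with INK128, a difference of -0.39 (SE 0.12, adjusted p = 0.0547). The dim ARPC2 probe differed by -0.36 (SE 0.12, adjusted p = 0.0639), while the bright ARPC2 probe differed by -0.11 (SE 0.22, adjusted p = 0.825). Both stood just outside the threshold, and they passed it in 5 and 7 of the other settings. ARPC5 was at 3.30, 2.95 and 3.27 in DMSO and at 3.27, 3.59 and 3.80 with INK128, with overlapping groups (0.38, SE 0.16, adjusted p = 0.159). Thus 3 of 10 member probes had groups without overlap, all lower, beside 36% of all kept probes (17.9% lower). An unadjusted p under 0.05 was found for 4 of 10, beside 4865 of the 18136 kept probes.

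The response to INK128 was compared between the lines directly, as the SUDHL-2 minus the SUDHL-4 difference. Of 10 probes 0 passed, beside 3.7% of all kept probes. Beside 3312 of the 18136 kept probes, 2 member probes had an unadjusted p under 0.05, both of ARPC2. The bright probe differed by 0.85 (SE 0.31, adjusted p = 0.159) and the dim probe by 0.47 (SE 0.17, adjusted p = 0.147). Both passed under quantile normalization (adjusted p = 0.0213 and 0.0312) and in a fit of all 23 arrays (0.0397 and 0.0356). For ARPC5L, called in SUDHL-4 cells only, the lines differed by 0.31 (95% interval -0.16 to 0.79, adjusted p = 0.504), so a difference between the lines was not shown.

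**Figure D4:**
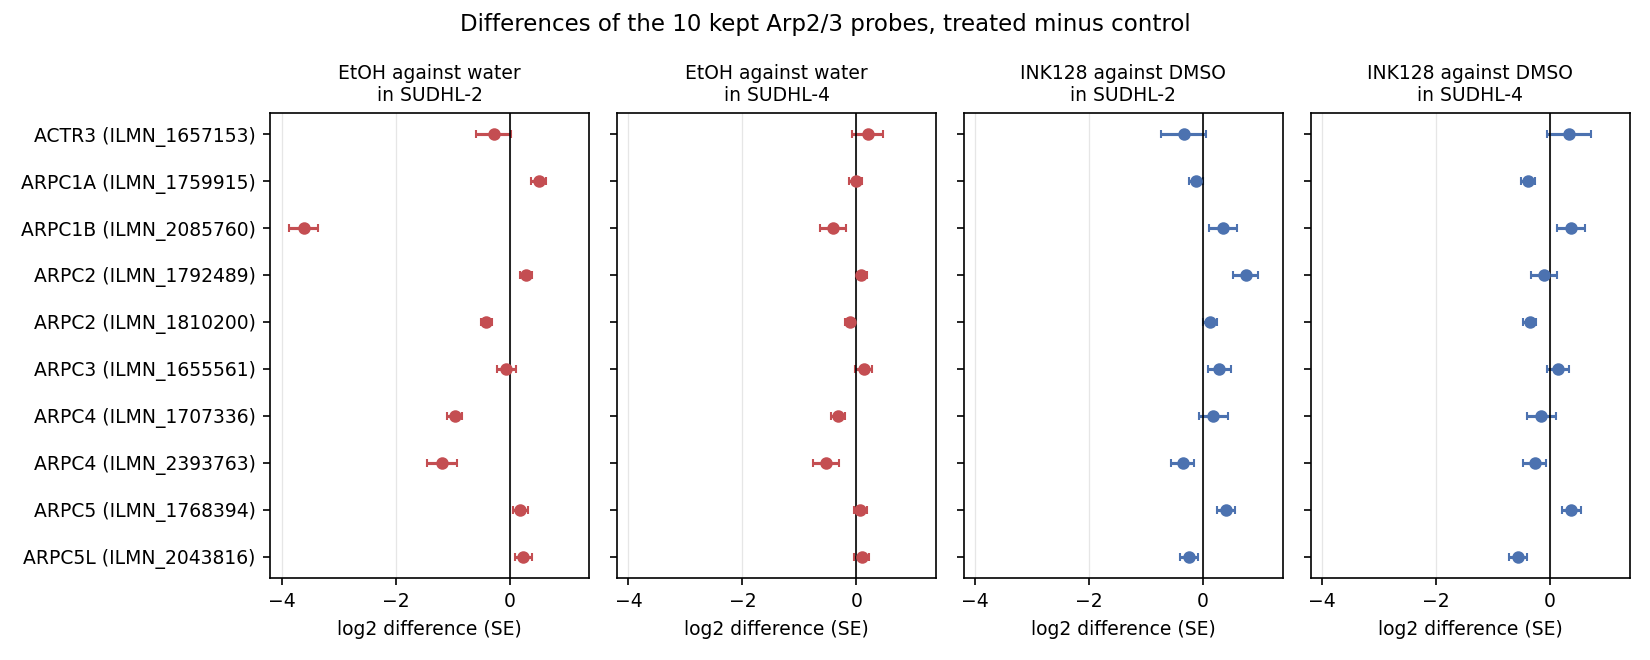
Log2 difference, treated minus control (horizontal axis), with its standard error, of the 10 kept probes of the Arp2/3 subunits (vertical axis) in the 4 treatment comparisons; EtOH in red, INK128 in blue. ARPC1B with EtOH in SUDHL-2 stands at -3.61, and all other points lie between -1.18 and 0.75.

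The lines themselves differed in the subunits. In the DMSO arrays 6 of 10 probes passed the test between SUDHL-2 and SUDHL-4, beside 55.6% of all kept probes, 2 higher and 4 lower in SUDHL-2 (background 27.2% and 28.4%), and 8 of 10 had groups without overlap, beside 64.8%. ARPC5 showed the widest gap, from 4.75, 5.00 and 5.19 on the SUDHL-2 arrays to 3.30, 2.95 and 3.27 on the SUDHL-4 arrays, a difference of 1.81 (SE 0.16, adjusted p = 1.3e-06). The bright ARPC2 probe was also higher in SUDHL-2, by 0.82 (SE 0.22, adjusted p = 0.00639). Both kept this direction in the water arrays, with values of 0.94 and 0.80. The order of the lines for these subunits was thus alike in both experiments.

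Lower in SUDHL-2 DMSO arrays were the first ARPC4 probe (-1.19, SE 0.25, adjusted p = 0.00134), ARPC1B (-1.0, SE 0.25, adjusted p = 0.00398), ARPC3 (-0.88, SE 0.19, adjusted p = 0.00172) and the dim ARPC2 probe (-0.67, SE 0.12, adjusted p = 0.00039). In the water arrays, given as a description, the first 3 of these were nearly level between the lines, at -0.08, -0.07 and -0.15, and the dim ARPC2 probe was at -0.52. ARPC5L went the other way, with -0.11 in DMSO (adjusted p = 0.596) and 1.15 in water. ACTR3 was at 0.88 in DMSO (limma, adjusted p = 0.0720) and at -0.14 in water. ARPC1A was at -0.29 in DMSO (adjusted p = 0.0624) and at 0.48 in water. The second ARPC4 probe was at -0.30 in DMSO (adjusted p = 0.230) and at 0.05 in water. The line differences of ARPC1B, ARPC3, ARPC4, ARPC5L, ACTR3 and ARPC1A thus differed between the controls.

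The controls of a line also differed from each other, in both directions. In SUDHL-2, DMSO minus water was -1.21 for ARPC1B, -1.52 and -0.76 for the ARPC4 probes, -1.23 for ARPC3 and -1.10 for ARPC5L. In SUDHL-4 the same differences were -0.27 for ARPC1B, -0.41 for both ARPC4 probes, -0.50 for ARPC3 and 0.16 for ARPC5L. For the remaining probes the SUDHL-2 and SUDHL-4 values were 0.53 and -0.50 for ACTR3 and 0.58 and -0.28 for ARPC5. They were 0.40 and 0.38 for the bright ARPC2 probe, -0.24 and -0.09 for the dim ARPC2 probe and -0.15 and 0.62 for ARPC1A. DMSO and water belong to different experiments, so that vehicle, culture time and experiment cannot be told apart, and the differences were not tested. ARPC1B was chosen on the same SUDHL-2 water arrays.

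The fall of ARPC1B on the SUDHL-2 EtOH arrays was shared with other single probes. In that comparison 112 of 18136 kept probes (0.618%) were lower by at least 2 on the log2 scale and 0 were higher by as much, a limit chosen after the values were seen. Of the 112 probes, 21 were not above background on the EtOH arrays, so that their falls are lower bounds, and ARPC1B was not among these. The same limit was passed downward by 2 probes with INK128 in either line, and by 1 probe with EtOH in SUDHL-4 cells. Of the genes behind the 112 probes, 47 had further probes detected on all SUDHL-2 water arrays. Their 53 steeply lower probes had a median of -2.47 and the 65 other such probes of the same genes a median of -0.06, with 12 of the 65 lower by at least 1. In 3 of the 47 genes every such probe was lower by at least 2. ARPC1B had a single probe on the array, so that no second probe could be set beside it.

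The 111 such probes other than ARPC1B were followed on each array of the experiment. Relative to the mean of the line's water arrays their median was -2.27 and -2.55 on the SUDHL-2 EtOH arrays. On SUDHL-4 EtOH replicate 1 all 111 were lower, with a median of -1.05, where ARPC1B was at -1.0 and the second ARPC4 probe at -1.15. On SUDHL-4 EtOH replicates 2 and 3 the median was -0.02 and -0.18. SUDHL-4 EtOH replicate 1 thus stood apart from replicates 2 and 3 for ARPC1B, the second ARPC4 probe and these probes. For the 111 probes the median of DMSO minus water was -0.95 in SUDHL-2 and -0.23 in SUDHL-4. Over all kept probes it was 0.11 and -0.02. Between the lines in DMSO the 111 probes had a median of -0.60, beside -0.08 over all kept probes. These probes, like ARPC1B, were chosen on the SUDHL-2 water arrays. What moved these probes together, and its part in the ARPC1B result, was not tested.

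**Figure D5:**
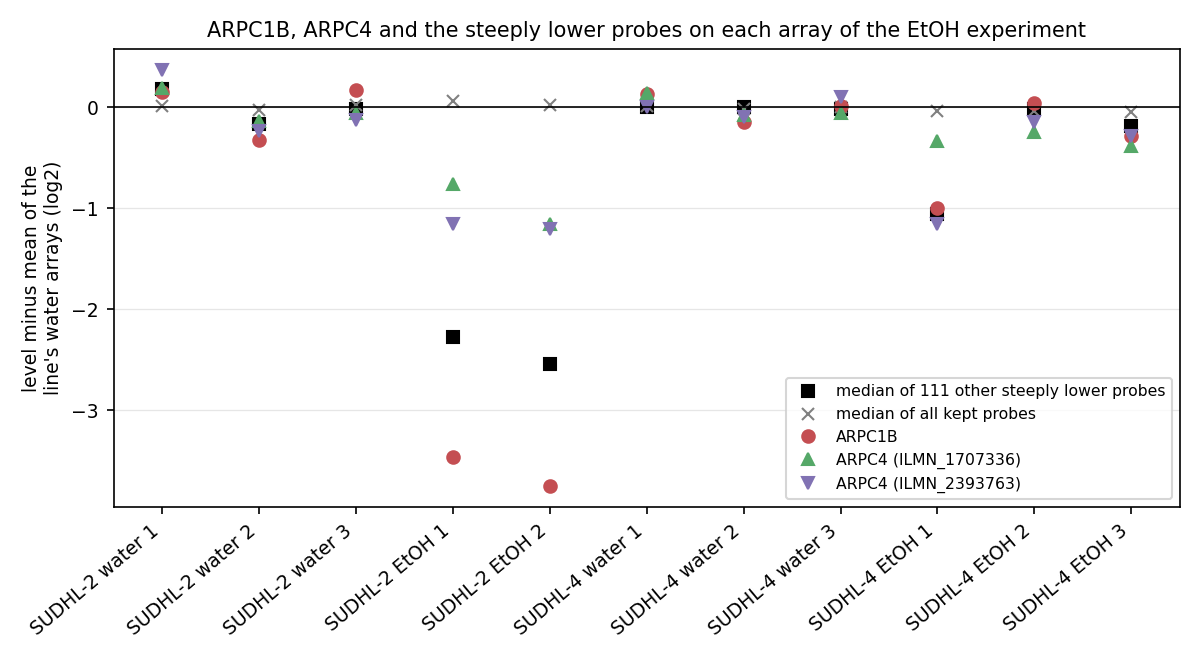
Level minus the mean of the line's water arrays (vertical axis, log2) on each of the 11 arrays of the EtOH experiment (horizontal axis): ARPC1B, both ARPC4 probes, the median of the 111 other probes at least 2 lower with EtOH in SUDHL-2, and the median of all kept probes. The 111 probes have medians of -2.27 and -2.55 on the SUDHL-2 EtOH arrays and of -1.05 on SUDHL-4 EtOH replicate 1, and the medians of all kept probes stay near 0.

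The probes most like ARPC1B over the 23 arrays were of this kind. By Pearson r they were ALDOA, a glycolytic enzyme (0.96), SCAND1 (0.96), SDF4, a calcium-binding protein of the Golgi (0.95), MED16, a Mediator subunit (0.95), and NAPSB (0.93). The arrays share lines and treatments, and the coefficients are descriptions. They include the SUDHL-2 EtOH arrays, on which the family was chosen, so nothing is read from this order. Without the SUDHL-2 EtOH arrays, over 21 arrays, r was 0.84, 0.84, 0.80, 0.80 and 0.83 for these probes. It was higher for a DUT probe (0.89) and for the first ARPC4 probe (0.86), which the order over 23 arrays had not picked. The ALDOA probe stood at -5.11 with EtOH in SUDHL-2, while a second ALDOA probe was at 0.32 and the last was not above background in SUDHL-2. The SDF4 probe was not above background with EtOH, at least 10.9-fold below water, and its other probe was at 0.01. The MED16 probe was likewise at least 7.5-fold below water. SCAND1 was lower on all 3 of its probes, at -3.09, -1.74 and, on a probe not above background with EtOH, at least 2.08-fold.

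By the mean absolute distance between log2 differences in the 4 treatment comparisons, the nearest probes were those of DUT, which removes dUTP (0.22), SDF4 (0.24), SCAND1 (0.26), CTAG1A (0.26) and MED16 (0.27). CTAG1A was not above background in SUDHL-4, so that its differences there carry no measurement, and SDF4 and MED16 enter with bounds. The other subunits were farther away, at 0.86 for the first ARPC4 probe to 1.47 for ARPC5L. The distance includes EtOH in SUDHL-2, the contrast on which the family was chosen, where ARPC1B stood at -3.61. Nothing is therefore read from this order. Over the 23 arrays the subunit probes correlated with ARPC1B by -0.56, for ARPC1A, to 0.68, for the dim ARPC2 probe. Without the SUDHL-2 EtOH arrays r was 0.86 and 0.66 for the ARPC4 probes, 0.67 for ARPC3 and 0.58 for the dim ARPC2 probe. ARPC5L had 0.18 and ARPC1A 0.04. Negative values were -0.54 for ACTR3, -0.57 for the bright ARPC2 probe and -0.65 for ARPC5.

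Of the reference genes ACTB and GAPDH, ACTB showed the same split between probes and GAPDH did not. ACTB, the gene of β-actin, had a probe (ILMN_1777296) at -2.10 with EtOH in SUDHL-2 and others at 0.09 and 0.11. ACTG1, the gene of γ-actin, named after its values were seen, had a probe at -3.53 (SE 0.75) and another at 0.07. The GAPDH probes were at 0.07 to 0.24. Probes of a gene that disagree in this way leave the direction of the gene open to the probe chosen.

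The regulators of the complex were taken from 9 lists of 65 actin genes, of which 53 genes had 72 kept probes. With INK128 in SUDHL-2 cells 5 rose and 1 fell (8.33% called, beside 3.51% of all kept probes), with a median of 0.13 against 0.03 over all kept probes. CYFIP2, a subunit of the WAVE complex that activates Arp2/3, rose by 0.62 (SE 0.11, adjusted p = 0.0125), although its second probe did not pass (0.44, adjusted p = 0.215). GMFG, which takes branches apart, rose by 0.65 (SE 0.14, adjusted p = 0.0255), and WASHC5, a subunit of the endosomal WASH complex, rose by 0.52 (SE 0.11, adjusted p = 0.0253). A probe of CDC42, the GTPase that switches on WASP, fell by 0.85 (SE 0.18, adjusted p = 0.0274), while its other 2 probes were at 0.03 and -0.32. The GMFG and WASHC5 calls were lost with median centring (adjusted p = 0.0961 and 0.160) and normexp (0.0530 and 0.0682), and WASHC5 also with a trend (0.0727). The count of 6 was 0 when the SUDHL-2 groups were fitted alone and 0 without SUDHL-2 DMSO replicate 3. It was 2 or 3 without SUDHL-2 DMSO replicate 1 or 2, SUDHL-2 INK128 replicate 2 or 3 or SUDHL-4 DMSO replicate 3, and 15 without SUDHL-2 INK128 replicate 1.

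With INK128 in SUDHL-4 cells 9 of the 72 probes rose and 4 fell (18.1% called, beside 15%), with a median of 0.11 against -0.06. GMFG rose by 1.09 (SE 0.14, adjusted p = 0.000315) and CYFIP2 by 0.69 (SE 0.11, adjusted p = 0.00128), with a second probe at 0.62 (adjusted p = 0.031). CTTN, cortactin, which stabilises branches, had a probe that was not above background on the DMSO arrays and at least 1.64-fold higher with INK128 (adjusted p = 0.00414), and it stood at 0.36 on the other (adjusted p = 0.202). The CDC42 probe that fell in SUDHL-2 cells fell by 1.05 (SE 0.18, adjusted p = 0.00243), and its other probes were at -0.15 and 0.12. Of the probes of WASP, N-WASP and their partner WIPF1, 0 of 4 passed in either line (limma). Also 0 of 4 had an unadjusted p under 0.05, beside 3109 in SUDHL-2 and 4865 in SUDHL-4 of the 18136 kept probes. The count of 13 was 6 without SUDHL-4 DMSO replicate 3 and 8 without SUDHL-4 INK128 replicate 2.

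With EtOH in SUDHL-4 cells 0 of the 72 probes passed (limma), beside 0.248% of all kept probes. An unadjusted p under 0.05 was found for 11, beside 2564 of the 18136 kept probes. In SUDHL-2 cells 7 were higher and 8 lower at the same limit (20.8%, beside 17%). The values with the smallest p were -2.10 for the ACTB probe, 0.60 for a probe of CYFIP1, -1.14 for CORO1A, a coronin that inhibits Arp2/3, and 0.66 for the CYFIP2 probe that had not passed with INK128 in this line. Both kept probes of ACTR3B, a paralog of ACTR3, were lower, at -0.68 and, on a probe not above background with EtOH, at least 1.9-fold.

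Between the lines in DMSO 17 of the 72 probes were higher in SUDHL-2 and 31 lower (66.7%, beside 55.6%). CYFIP2 was lower, at -3.41 and -3.75 on its probes (adjusted p = 7.3e-11 and 2.6e-09), and ABI3, another WAVE subunit, was not above background in SUDHL-2 DMSO and at least 10.3-fold lower than in SUDHL-4 (adjusted p = 2e-09). GMFG was higher by 2.66 (adjusted p = 7.3e-09). Of the 9 WAVE complex probes 2 were higher and 6 lower in SUDHL-2, with a median of -1.09 against -0.08 over all kept probes.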

How the data were processed

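RNA of pooled polysomal fractions from SUDHL-2 and SUDHL-4 cells was hybridised to Illumina HumanHT-12 BeadChips, which the labels call V4.0 and the study's methods v1.0. From GenomeStudio 1.9.0 the authors exported and deposited each probe's signal intensity without normalization, together with its detection p-value on each array. The authors also deposited Z-scores per array, and these score values served only as an alternative. Gene names came from the platform's annotation, where 17110 probes had no symbol and 8 had several.

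Of 47323 listed probes 47231 had values, and 18136 were kept (detection p at or below 0.02 on every array of a group). Signals below the lowest detected signal of an array (59.4 to 91.4) were set to it, taken to log2, turned into a Z-score per array and multiplied by the mean SD of 2.03. limma 3.58.1 in R 4.3.3 (data.table package, version 1.17.8) fitted the 4 groups of an experiment together per probe, with 12 arrays for INK128 and 11 for EtOH, eBayes and Benjamini-Hochberg adjustment over all kept probes. Calls required an adjusted p under 0.05. The fits were tested on simulated data. Python 3.11.15 with matplotlib 3.10.9 drew the figures.

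The members, the lists, the tests and the naming rule were chosen with earlier results of these data known. Named are every member probe, per comparison the 4 called probes of the actin lists with the smallest p, the 5 probes most like ARPC1B by r and the 5 by the distance between log2 differences, ACTB and GAPDH. Same-numbered treated and control arrays were checked for pairing by correlating their deviations from the group means. With EtOH the title numbers gave 0.42 and 0.54 for SUDHL-2, and 0.37, 0.19 and 0.14 for SUDHL-4. Pairing was not settled in SUDHL-4, where titles and sample names pair the water and EtOH arrays differently. With INK128 the title numbers gave -0.29 to 0.48, of both signs. Differences, standard errors and p-values above come from fits and tests without pairing unless a block is named. With the arrays blocked by either numbering, still no member probe passed with EtOH in SUDHL-4 cells (limma). Alternatives were other normalizations and filters, normexp with an offset of 16, means per symbol, other fits, replicate blocks and leaving out each array.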

Additional observations from a re-analysis of the deposited data

Results flagged for a closer look

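A single pattern among the actin genes was marked because the response to INK128 differed between the lines by a test of the difference itself. For COTL1, a protein that binds actin filaments, the SUDHL-2 response minus the SUDHL-4 response was 1.24 (SE 0.29, adjusted p = 0.0371, limma), with 0.41 in SUDHL-2 cells and -0.83 in SUDHL-4 cells. For the CTTN probe ILMN_1744912 the difference was -0.80 (SE 0.19, adjusted p = 0.0405), with -0.09 in SUDHL-2 cells and 0.71 in SUDHL-4 cells, whose DMSO arrays were not above background for this probe, so that 0.71 is a lower bound, and the other CTTN probe gave -0.53 (adjusted p = 0.272). With single arrays left out, both calls were kept without SUDHL-2 INK128 replicate 1 or 2, that of COTL1 also without SUDHL-4 DMSO replicate 1, and both were lost without any other array of the INK128 experiment (9 of 12 fits for COTL1 and 10 of 12 for CTTN). The COTL1 call was also lost with quantile normalization (adjusted p = 0.0578) and with probes detected on every array (0.0505), and the CTTN call with median centring (0.0998) and a trend (0.0523). No Arp2/3 subunit met this criterion.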

How the results depend on the processing

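Directions did not reverse in any setting tried for a called value. Of the 10 member probes, the call of 0 with INK128 in SUDHL-2 cells became 1 with quantile normalization, without a detection filter and with all 23 arrays in 1 fit. With the replicate block it was also 1 (the bright ARPC2 probe, adjusted p = 0.0353), where title and sample-name numbers are the same, and the block changed no other count of member probes by over 1.5 times. Of the named actin probes the block ended the WASHC5 call with INK128 in SUDHL-2 cells (adjusted p = 0.0608) and the CTTN line difference (0.0583). In SUDHL-4 cells the count of 1 became 2 with median centring, normexp, means per symbol or a trend, and 3 with only the groups compared, all 23 arrays, the deposited table or Z-scores taken over all probes. With means per symbol, here and below, the counts are of genes (8 members and 53 actin genes) and not of probes, so they are not directly comparable. For the line difference with INK128 it became 2 with quantile normalization or all 23 arrays. EtOH in SUDHL-2 cells is the contrast used to choose the family, so its counts of adjusted p under 0.05 (limma) are no test of the members. There the count was 5 of 10 probes, beside 17% of all kept probes, or 3 with means per symbol. It was also 5 without SUDHL-2 water replicate 2. Leaving out a SUDHL-2 EtOH array leaves 1 in its group, and no count is given for these fits. Nothing is read from these counts. Leaving out single arrays gave 0 to 1 and 0 to 3 with INK128 in SUDHL-2 and SUDHL-4 cells, and 6 to 8 between the lines in DMSO.

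The count of actin list probes with INK128 in SUDHL-2 cells became 2 with median centring or normexp, 3 with means per symbol or a trend and 0 with only the groups compared. In SUDHL-4 cells it became 8 with median centring. With EtOH it became 9 in SUDHL-2 cells with means per symbol and 1 in SUDHL-4 cells with the Z-score over all probes. For the line difference with INK128 it became 0 with probes detected on every array, 1 with means per symbol or a trend, and 7 with all 23 arrays. Leaving out single arrays gave 0 to 15 and 6 to 17 with INK128 in SUDHL-2 and SUDHL-4 cells and, for the line difference, 0 to 4. With EtOH in SUDHL-2 cells ARPC1B was at -4.13 with normexp and -4.12 in the deposited table, and ARPC1B minus the other subunits at -4.04 and -4.07. Leaving out single arrays gave -3.77 to -3.46 for ARPC1B there, where leaving out a SUDHL-2 EtOH array leaves 1 in its group. The cause of these changes was not tested. Dim signals limit the ARPC2 probe ILMN_1810200, and no paired fit was possible between the lines because arrays of different lines share only a number.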
